A study of Mus musculus with 22 samples.

Results

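The regions described here are all those on mouse chromosome 8 in the authors' tables for 2 histone marks, with the peaks called there in each library. For acetylation of histone H3 at lysine 27 (H3K27ac) there were 6750 chromosome 8 regions of 135566 in all, of which 4501 held a peak in at least 1 of 6 libraries. For trimethylation of lysine 9 (H3K9me3) there were 3250 of 68845, and each held a peak. The chromosome was selected from measured values of these same tables, in which it stood apart when the C2 and C3 cells were set against OSKM. Those differences are therefore given as a description, with no test.

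All cells came from embryonic fibroblasts (MEFs) of C57BL/6 mice. C2 cells received ZFATF1, ZFATF2 and ZFATF3, artificial transcription factors (ATFs), with Sox2, Klf4 and c-Myc. C3 cells received ZFATF1, ZFATF2 and ZFATF4 with the same 3 factors, and OSKM cells received Oct4, Sox2, Klf4 and c-Myc. All 3 were profiled as induced pluripotent stem (iPS) cells after 100 nM 4-hydroxytamoxifen, which acts on their Oct4-MerCreMer and Tomato/GFP reporter, and were fixed in 1.5% formaldehyde. Each mark had 2 libraries per cell group. A further 4 libraries were precipitated with an antibody to the HA tag at day 20, 2 from MEF-derived cells with the C2 factors and 2 from cells given Empty, Sox2, Klf4 and c-Myc. C2 and OSKM shared their input samples, which the labels give with both sets of factors, while C3 had inputs of its own. The labels do not say whether replicates were separate cultures or whether a cell group was 1 clone, so the spread between libraries may be technical.

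H3K27ac lies over active promoters and enhancers, and H3K9me3 lies over silent chromatin, including repeats, gene deserts and clusters of zinc finger genes. Mouse chromosome 8 carries several genes that are active in pluripotent cells, among them Zfp42, Klf2 and Sall1, beside the defensin and carboxylesterase families and the tandem 5S ribosomal RNA genes. Gain of chromosome 8 is a recurrent change of karyotype in cultured mouse pluripotent cells. Because an immunoprecipitate draws on the DNA present, reads over a chromosome depend on its copies as well as on its marks. The number of copies was not measured in these samples.

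Within a library the tables' values were whole multiples of the lowest value, and that value was taken as 1 read. Some regions at the lowest value held called peaks, so there it cannot stand for all the reads that fell in the region. Over all regions a histone library held 3412599 to 17649231 reads counted in this way. Pluripotency markers outside chromosome 8 (Pou5f1, Nanog, Sox2, Esrrb, Tdgf1, Lin28a, Dppa5a and Utf1) all held H3K27ac regions with a mean of 50 or more normalized reads. Normalized reads are reads over a size factor taken from regions of the other autosomes that held a peak in all 6 libraries. Their regions summed to 18156 to 21434 normalized reads in C2, 22602 to 30003 in C3 and 32238 to 34173 in OSKM. None of the 8 fibroblast markers reached that minimum, and the 3 with a region, Thy1, Col1a1 and Prrx1, summed to 63 to 110 in all 6 libraries. All 6 endoderm markers were lower in both OSKM libraries than in the other 4 and summed to 1125 to 1907 in C2, 1953 to 2564 in C3 and 407 to 592 in OSKM, where Foxa2 was at 1 normalized read in the first library. The part of these differences between the cells in the results on single genes was not tested.

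For the members that stand for the results below, the promoter windows from RefSeq (GRCm38.p6, 250 bases before to 50 after the annotated start, 5′ to 3′ along the gene) are shown, with each CG dinucleotide in capitals because H3K27ac over a promoter often goes with its CpG content. Nanos3, a germ cell RNA-binding protein gene, showed the widest H3K27ac range among the pluripotency and germ cell genes. Klf2 encodes a transcription factor of the naive pluripotent state, and Zfp42 encodes Rex1, a marker of that state. Isx, an intestinal homeobox gene, went against the chromosome. The windows are chr8:84176503-84176802 (minus strand), chr8:72318812-72319111 (plus), chr8:43306960-43307259 (minus) and chr8:74872924-74873223 (plus), in that order.
Nanos3: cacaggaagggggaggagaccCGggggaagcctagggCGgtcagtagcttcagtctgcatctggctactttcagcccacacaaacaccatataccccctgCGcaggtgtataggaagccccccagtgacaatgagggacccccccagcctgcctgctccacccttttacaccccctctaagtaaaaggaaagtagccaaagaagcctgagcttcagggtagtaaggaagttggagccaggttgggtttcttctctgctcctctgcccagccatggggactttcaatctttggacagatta
Klf2: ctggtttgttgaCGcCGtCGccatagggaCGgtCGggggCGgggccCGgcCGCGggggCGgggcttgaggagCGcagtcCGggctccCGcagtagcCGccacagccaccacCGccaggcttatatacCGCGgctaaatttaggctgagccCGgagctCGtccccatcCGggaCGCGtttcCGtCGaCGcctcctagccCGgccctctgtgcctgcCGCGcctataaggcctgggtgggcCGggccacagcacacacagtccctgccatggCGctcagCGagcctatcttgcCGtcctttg
Zfp42: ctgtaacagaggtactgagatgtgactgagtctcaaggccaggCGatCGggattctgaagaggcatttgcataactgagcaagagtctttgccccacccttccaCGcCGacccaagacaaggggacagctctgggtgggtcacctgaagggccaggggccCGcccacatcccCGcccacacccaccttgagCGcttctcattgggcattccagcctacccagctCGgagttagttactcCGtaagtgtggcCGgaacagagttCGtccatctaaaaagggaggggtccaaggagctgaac
Isx: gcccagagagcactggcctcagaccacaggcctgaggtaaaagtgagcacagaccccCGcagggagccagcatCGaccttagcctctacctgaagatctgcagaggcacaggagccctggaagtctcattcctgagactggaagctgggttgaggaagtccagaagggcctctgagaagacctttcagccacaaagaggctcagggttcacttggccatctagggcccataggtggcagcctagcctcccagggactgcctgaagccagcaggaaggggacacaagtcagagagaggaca

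The windows held 3 CpGs (Nanos3), 32 (Klf2), 11 (Zfp42) and 2 (Isx). Over the 1442 annotated promoter windows of chromosome 8 the median was 8 CpGs, and 45.4% held 10 or more, against 7 and 43.9% over 29954 windows of the other autosomes. CpG content thus did not set the chromosome's promoters far apart. An H3K27ac region covered 49.0% of the chromosome 8 windows (48.8% elsewhere), and an H3K9me3 region covered 2.70% (1.78% elsewhere). Under both marks lay 2 of the 1442 chromosome 8 windows and 121 of the 29954 elsewhere.

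Each of the 4 printed windows lay under an H3K27ac region and none under H3K9me3. The region over the Nanos3 window held 223 and 315 normalized reads in C2, 0.717 and 35.6 in C3, and 1237 and 1109 in OSKM. Over the Klf2 window the values were 929 and 711, 1111 and 825, and 1849 and 1723. Over the Zfp42 window they were 963 and 777, 1647 and 1238, and 3162 and 3139. In these 3 regions both OSKM libraries stood above all 4 others. The order was the opposite over the Isx window, with 143 and 95.2 in C2, 249 and 149 in C3, and 0.987 and 10.2 in OSKM. The CpG-rich Klf2 window and the CpG-poor Nanos3 window thus both sat under regions that were highest in OSKM.

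Chromosome 8 as a whole held more of both marks' reads in OSKM. Of the H3K27ac reads in autosomal regions, 4.20% and 3.51% lay on chromosome 8 in C2, 4.35% and 3.89% in C3, and 7.72% and 7.60% in OSKM. Of the H3K9me3 reads, 3.72% and 3.98% lay there in C2, 4.40% and 4.20% in C3, and 6.35% and 6.19% in OSKM. The OSKM libraries did not overlap the others in either mark. The 2 OSKM libraries differed by less from each other than the replicates of C2 or C3 did, in both marks.

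As a level, taken as the log2 ratio of reads on chromosome 8 to reads on the other 18 autosomes, H3K27ac was -4.65 ± 0.19 in C2, -4.54 ± 0.12 in C3 and -3.59 ± 0.02 in OSKM (SD, n = 2 each). The difference from OSKM was -1.05 in C2 and -0.95 in C3 (log2), which put OSKM 2.08-fold and 1.93-fold higher. For H3K9me3 the levels were -4.64 ± 0.07, -4.48 ± 0.05 and -3.90 ± 0.03, which put OSKM 1.67-fold above C2 and 1.49-fold above C3. The pairs share the OSKM libraries, so the C2 and C3 values are not independent of each other.

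Between C2 and C3, a contrast that did not select the chromosome, the levels differed by less. The H3K27ac level differed by -0.10 (C2 minus C3), with an exact two-sided permutation p of 0.667, and by 0.031 in the other direction without the second C2 library. For H3K9me3 the difference was -0.17, with all 4 libraries in order and an exact permutation p of 0.333, the smallest that 2 libraries against 2 allow. No difference can pass that test in this design. The other autosomes ranged from -0.10 to 0.09 in H3K27ac and from -0.11 to 0.35 in H3K9me3, and chromosome 8 was the lowest of the 19 in both marks. With the strongest 1% of regions left out it stood at -0.12 in H3K27ac, where chromosome 13 was lower (-0.13), and at -0.09 in H3K9me3, where the lowest other was -0.06.

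**Figure D1:**
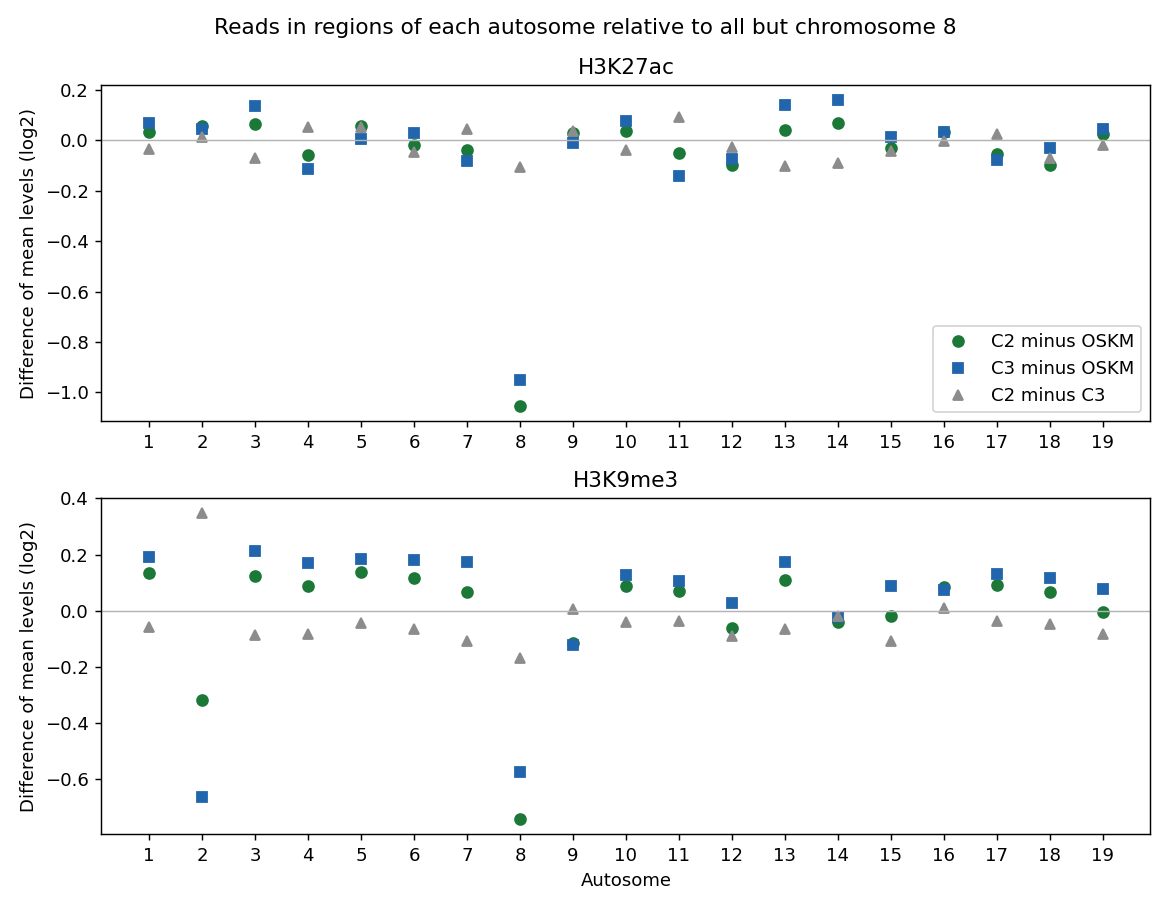
Difference of mean levels (log2) of each of the 19 autosomes for C2 minus OSKM, C3 minus OSKM and C2 minus C3, with H3K27ac and H3K9me3 in separate panels; each point is 1 chromosome. Chromosome 8 sits at -1.05 and -0.95 for H3K27ac while the other autosomes lie between -0.14 and 0.16, and for H3K9me3 chromosome 2 is the one other autosome near it (-0.32 and -0.66, against -0.74 and -0.57).

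For H3K27ac the other 18 autosomes ranged from -0.10 to 0.07 in C2 minus OSKM and from -0.14 to 0.16 in C3 minus OSKM. For H3K9me3 they ranged from -0.32 to 0.14 and from -0.66 to 0.21, and chromosome 2 gave both of the lowest values. A single region of chromosome 2 (chr2:98666241-98667336) held 37.9% to 60.1% of that chromosome's H3K9me3 reads. With the strongest 1% of regions left out, chromosome 2 stood at 0.03 and -0.02, the other autosomes spanned -0.17 to 0.05 and -0.13 to 0.06, and chromosome 8 stood at -0.85 and -0.77. Chromosome 8 has a strong region of its own, described below, but its difference was as large without it.

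The difference ran along the whole chromosome. In the assembly's 13 bins of 10 Mb, both OSKM libraries were above all 4 others in 13 of 13 bins for H3K27ac, against 23.3% of 240 bins on the other autosomes. For H3K9me3 it was again 13 of 13, against 3.70% of 243 bins. These bin counts rest on the values that selected the chromosome.

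C2 minus OSKM in H3K27ac went from -1.48 in the sixth bin (50 to 60 Mb), which held the fewest regions, to -0.82 in the first bin, with a median of -1.06. C3 minus OSKM went from -1.19 in the last bin to -0.47 in the first, with a median of -0.94. For H3K9me3 the ranges were -0.86 to -0.56 and -0.76 to -0.23, and the first bin was again the smallest. The first bin, at the centromere end of this chromosome, thus differed least in both marks. In H3K27ac the second bin was at -1.12 in C2, larger in size than the median. In C3 it was at -0.62, the smallest after the first bin.

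The first 10 Mb were not uniform. Split in 5 Mb bins, the H3K27ac difference from OSKM between 5 and 10 Mb was 0.61 in C3 and -0.18 in C2, while from 0 to 5 Mb it was -0.76 and -0.97. That 5 Mb bin, with 71 regions, was the only one of 26 in which the OSKM libraries were not above the other 4. The H3K9me3 differences in it were -0.50 in C2 and -0.20 in C3.

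C2 and C3 differed from each other by bin in H3K27ac, from -0.53 in the sixth bin to 0.11 in the last, with C2 lower in both libraries than either C3 library in 5 of 13 bins. This was 38.5% of the bins, against 45.0% on the other autosomes. The 5 bins (the first, the second and the 3 from 40 to 70 Mb) all lay in the first 70 Mb. In H3K9me3 the C2 minus C3 values went from -0.33 in the first bin to -0.02 in the fourth.

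**Figure D2:**
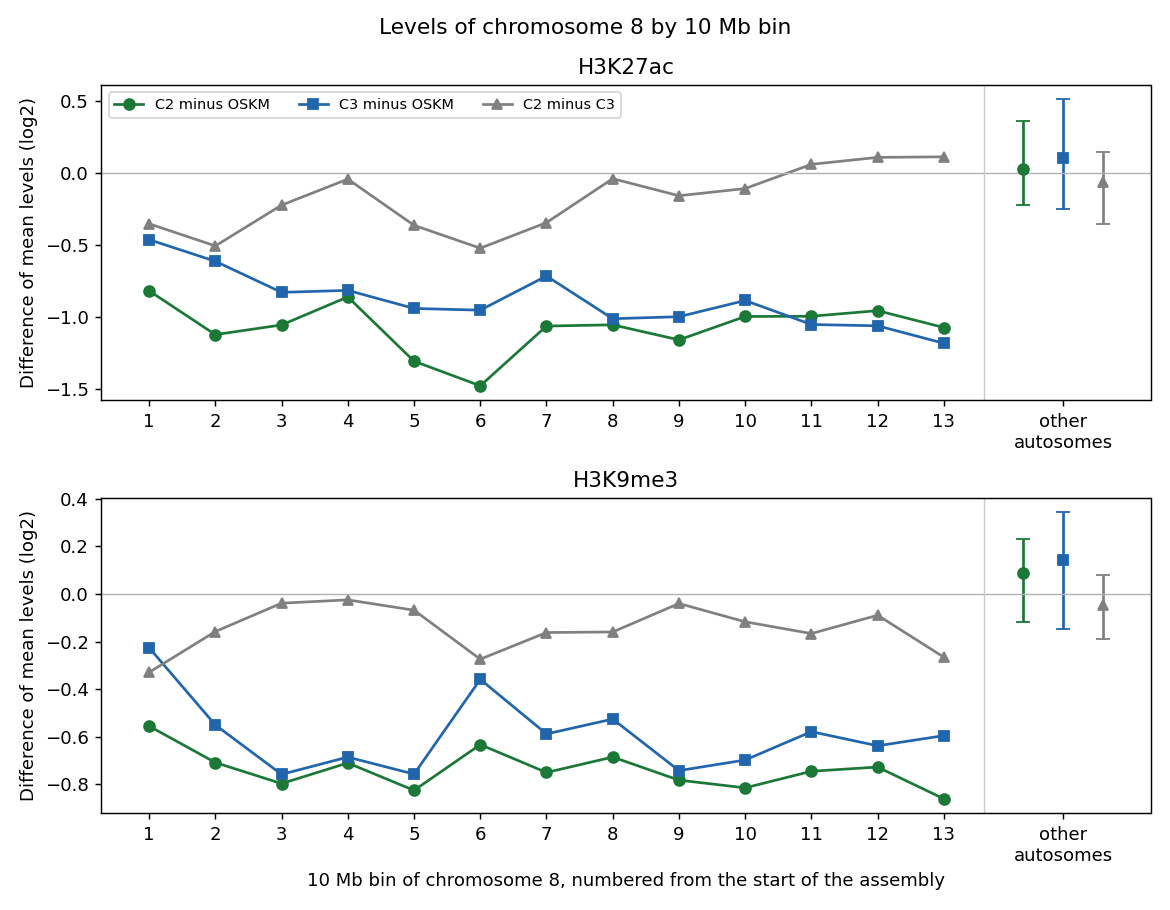
Difference of mean levels (log2) in each 10 Mb bin of chromosome 8 for the 3 pairs of cell groups, H3K27ac above and H3K9me3 below; the markers at the right give the median of the bins of the other autosomes with a bar from their 5th to their 95th percentile. All 13 bins lie below 0 for both pairs with OSKM, from -1.48 to -0.47 in H3K27ac and from -0.86 to -0.23 in H3K9me3.

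Among single regions, those with a peak and a mean of 50 or more normalized reads over the 6 libraries were counted. This kept 2109 H3K27ac regions of chromosome 8. Both OSKM libraries were above all 4 others in 1550 of them (73.5%, against 18.7% of 39624 regions on the other autosomes), and below all 4 in 68 (3.22%, against 26.1%). Of 1162 H3K9me3 regions, OSKM was above in 901 (77.5%, against 16.1% of 21271) and below in 3 (0.258%, against 14.0%). The contrast selected the chromosome, so these shares describe it and are not evidence beyond that.

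Most of the distribution was displaced. The median H3K27ac difference was -1.09 for C2 minus OSKM and -0.95 for C3 minus OSKM, against 0.04 and 0.04 elsewhere. The interquartile range on chromosome 8 was 0.81 and 1.07, beside 0.88 and 1.02 on the other autosomes. In H3K9me3 the medians were -0.82 and -0.75, against -0.02 and -0.01, and the interquartile ranges 0.55 and 0.75, against 0.48 and 0.57. The lower tail was heavier on chromosome 8 and the upper tail lighter. The part of values at 1 read in these tails was not tested. Regions more than 1 above the median made up 9.53% (C2) and 14.4% (C3) in H3K27ac, against 13.1% and 16.5% elsewhere. In H3K9me3 they made up 1.29% and 1.46%, against 2.02% and 2.05%. Regions more than 1 below the median made up 9.58% (C2) and 13.4% (C3) in H3K27ac, against 4.22% and 8.17%, and 5.25% and 8.26% in H3K9me3, against 0.874% and 3.89%. For C2 minus C3 in H3K27ac the interquartile range was 0.83, against 0.66 elsewhere. With regions split into 4 equal classes by strength, the medians stayed between -1.15 and -1.05 for C2 minus OSKM in H3K27ac and between -0.91 and -0.76 in H3K9me3, on a chromosome where weak and strong regions were both lower. On the other autosomes the same H3K27ac medians went from 0.29 in the weakest class to -0.22 in the strongest.

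**Figure D3:**
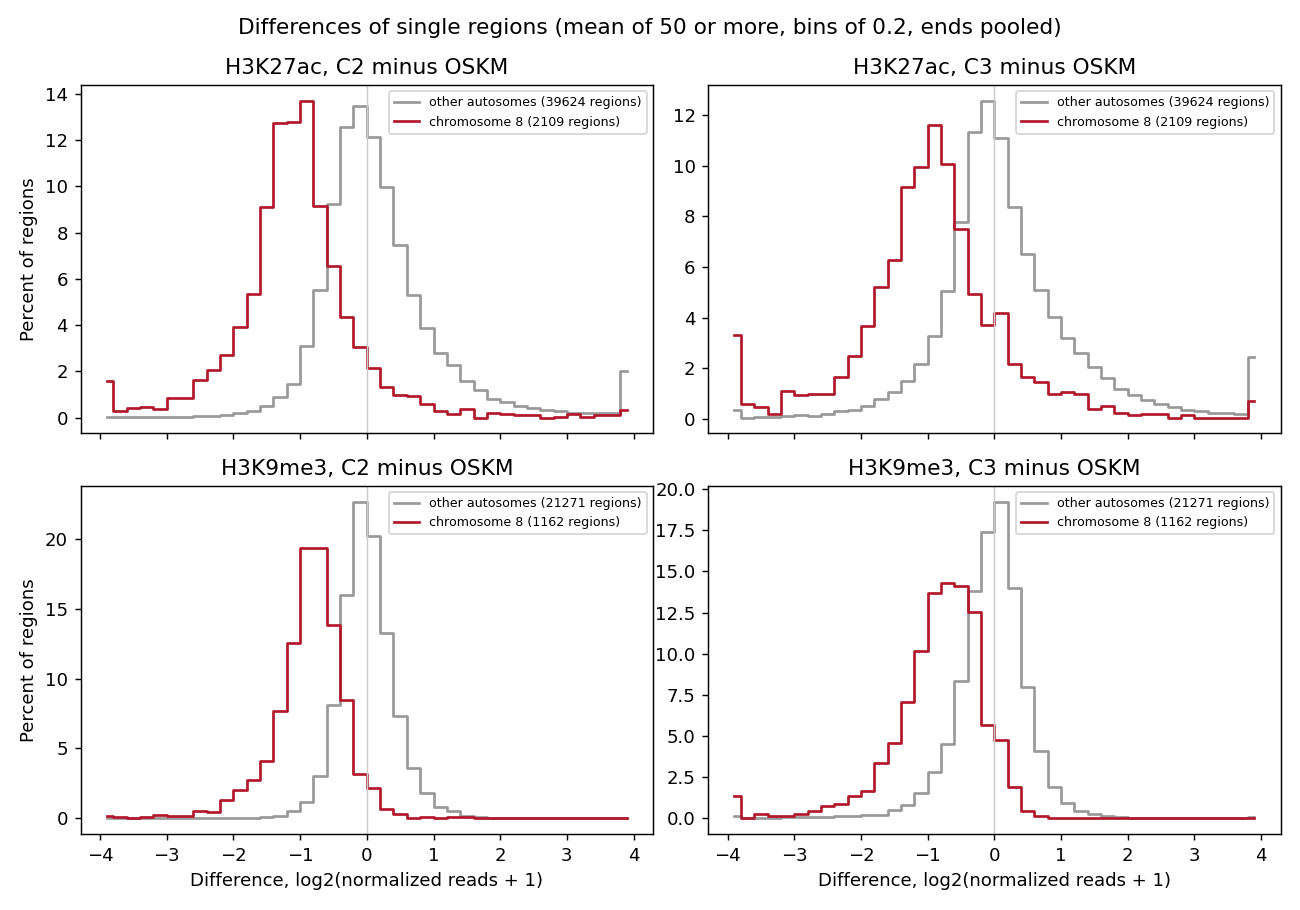
Distribution of the differences of single regions (log2, bins of 0.2) on chromosome 8 and on the other autosomes, for regions with a mean of 50 or more normalized reads. Panels give C2 minus OSKM and C3 minus OSKM for each mark. The chromosome 8 curves are centred between -1.09 and -0.75 and the other autosomes between -0.02 and 0.04. For C2 minus C3, which is not drawn, the medians on chromosome 8 and elsewhere are -0.11 and -0.05 in H3K27ac and -0.08 and 0.01 in H3K9me3.

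Regions were also split by whether they lay over a promoter. Of 504 H3K27ac regions over an annotated promoter window, OSKM was above all 4 others in 458 (90.9%, against 22.5% elsewhere), and of 1605 away from promoters in 1092 (68.0%, against 17.5%). The median C2 minus OSKM difference was -1.12 at promoters and -1.06 away from them, and the difference between the counts was not tested. The median C3 minus OSKM difference was -1.06 and -0.88.

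Which regions held a called peak also differed. Regions with a peak in both OSKM libraries and in no other made up 6.22% of chromosome 8 H3K27ac regions with a peak (280 regions) and 16.9% of H3K9me3 regions (549), against 2.06% and 7.88% on the other autosomes. Regions with a peak in both C2 libraries alone numbered 0 in both marks on chromosome 8, against 0.720% and 0.215% elsewhere. For both C3 libraries alone there were 325 H3K27ac regions (7.22%, against 4.89%) and 17 H3K9me3 regions (0.523%, against 1.02%). The second C2 library held an H3K27ac peak in 1260 chromosome 8 regions, against 2819 in the first and 3422 to 3855 in OSKM and C3. Elsewhere it held 43310, against 71454 and 55922 to 73590. The inputs of C2 and OSKM had a higher local background on chromosome 8 than those of C3, as given below. The part of either in these counts was not tested.

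The peak heights gave a smaller difference than the region reads. At 1115 to 3527 summits called in both libraries of a same-numbered pair, the H3K27ac pileup on chromosome 8, relative to the other autosomes, was 1.34-fold and 1.51-fold higher in OSKM than in C2 and 1.40-fold and 1.34-fold higher than in C3 (replicates 1 and 2). For H3K9me3 the ratios were 1.18 and 1.19 over C2 and 1.18 and 1.16 over C3. Between C2 and C3 they were 0.985 and 0.989 for H3K27ac and 0.983 and 1.00 for H3K9me3. Single other autosomes lay between 0.942 and 1.08 in all H3K27ac pairs. The pileups rank the cell groups as the region reads do, with OSKM above and C2 and C3 alike, but at 1.34-fold to 1.51-fold and not near 2-fold.

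This ratio was above 1 in all 13 bins for each OSKM pair in both marks. It ranged over bins from 1.14 to 1.65 in H3K27ac over C2, from 1.18 to 1.50 over C3, and from 1.09 to 1.28 in H3K9me3 over either. The fewest summits in a bin numbered 25.

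The local background that the peak caller took from the input also differed on chromosome 8. Worked back from pileup and fold enrichment, its median at chromosome 8 H3K27ac peaks was 1.50 and 1.54 times that at other autosomes in C2 and 1.41 and 1.39 times in OSKM, but 1.00 and 0.994 times in C3. At matched summits it was 1.44-fold higher in OSKM than in C3 in both replicates, and 1.43-fold and 1.45-fold higher in C2 than in C3. OSKM and C2, which used the same inputs, were at 1.00 in both. For H3K9me3 the excess over C3 was 1.16 and 1.17 in OSKM and 1.11 and 1.06 in C2. These matched ratios used only summits whose background exceeded a library's lowest expected value by a set margin in both libraries. For H3K9me3 these were 891 of 2486 and 494 of 1147 chromosome 8 summits between OSKM and C3. Between C2 and C3 they were 777 of 2235 and 570 of 1374.

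The inputs given to C2 and OSKM thus set a higher local background on chromosome 8 than the C3 inputs. Relative to C3, the H3K27ac peak heights were at 1.40 and 1.34 in OSKM and at 0.985 and 0.989 in C2. The relation of these heights to the background excess was not tested. The labels give both sets of factors for the shared inputs, so the share of C2 and of OSKM in that excess cannot be told apart. How the authors treated input reads in the region tables is not given in the sources used here, and its part in the gap between the 2-fold region difference and the peak heights was not tested. The same holds for the number of chromosome 8 copies.

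**Figure D4:**
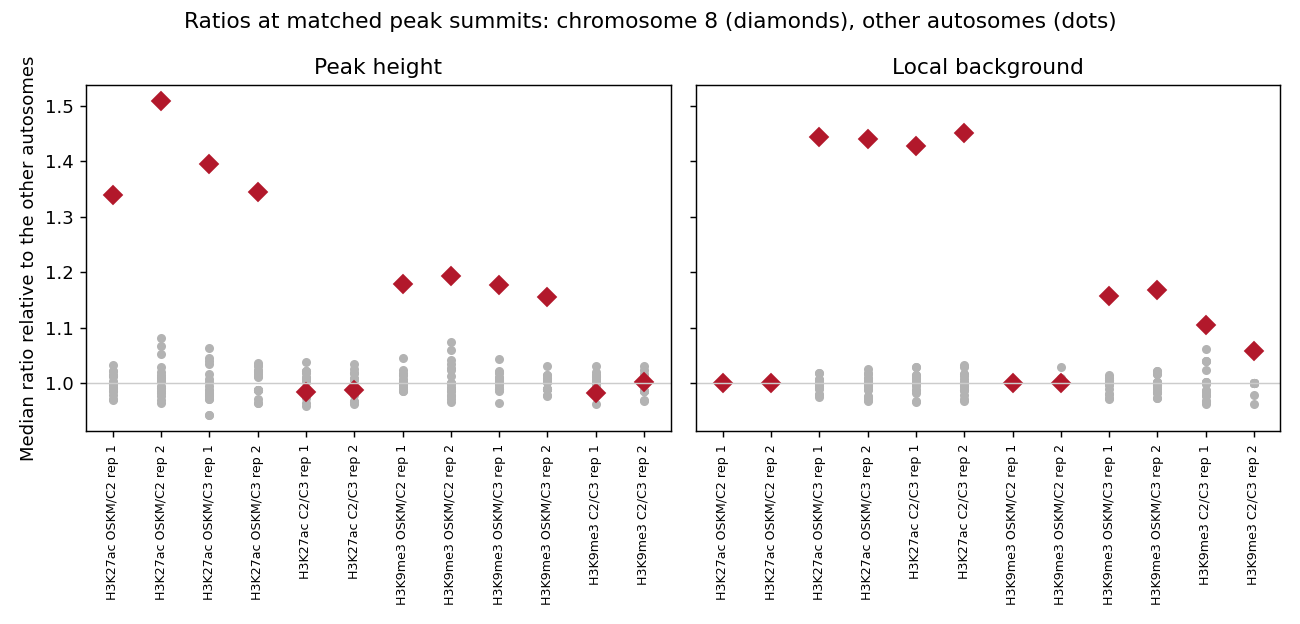
Ratio of peak heights (pileup) and of local background at matched summits for each pair of cell groups and replicate, each relative to the median of the other autosomes; diamonds are chromosome 8, dots the other autosomes. Background ratios use only summits above the lowest background in both libraries. H3K27ac heights on chromosome 8 are 1.34 to 1.51 times higher in OSKM. The H3K27ac background is 1.43 to 1.45 times higher in C2 and OSKM than in C3, with 1.00 between C2 and OSKM.

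Fold enrichment is no separate observation, since the local background was worked back from it and from the pileup. The median over chromosome 8 H3K27ac peaks was 3.73 and 3.01 in C2, against 4.22 and 3.63 on the other autosomes, and 4.11 and 4.14 in OSKM, against 4.49 and 4.50. In C3 it was the same on chromosome 8 as elsewhere, at 4.83 against 4.85 and 4.20 against 4.20. In the authors' peak lists, 3.93% and 2.83% of C2 autosomal H3K27ac peaks lay on chromosome 8, 5.07% and 5.03% of C3 peaks, and 5.62% and 5.52% of OSKM peaks. C2 thus had both the lowest share of peaks and the lowest fold enrichment there.

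The genes of the chromosome showed what the regions did. For each protein-coding gene the strongest region by mean was taken, up to 2500 bp away for H3K27ac and 2000 bp for H3K9me3, and 751 of 1043 had an H3K27ac region with a mean of 50 or more. The OSKM libraries were above all 4 others for 660 of these genes (87.9%, against 23.4% of 12643 genes elsewhere) and below for 7 (0.932%, against 16.2%). For H3K9me3 the region lay above for 136 of 158 genes (86.1%, against 28.6% of 3061) and below for 1 (0.633%, against 8.62%). The lists that follow are read against these shares, and a list near 87.9% does what the chromosome does.

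Of the 9 pluripotency and germ cell genes, 9 were higher in both OSKM libraries than in all others, with median differences of -1.39 (C2 minus OSKM) and -1.02 (C3 minus OSKM). Sall1, a zinc finger repressor gene of pluripotent and kidney progenitor cells, lay in the strongest H3K27ac region of the chromosome (chr8:88996560-89030639). That region held 5974 and 4037 normalized reads in C2, 9368 and 6233 in C3, and 13410 and 12300 in OSKM. Its tallest peak was 119 and 68 high in C2, 221 and 104 in C3, and 221 and 209 in OSKM. Heights of single peaks are pileups as deposited, not scaled for the number of reads in a library, so they are not compared with normalized reads. The region reads of both OSKM libraries were above all others at Sall1.

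Triml1 and Triml2, tripartite motif genes next to Zfp42, shared a region with 720 and 471 normalized reads in C2, 1089 and 862 in C3, and 2225 and 2187 in OSKM, a C2 minus OSKM difference of -1.92 beside -1.86 for Zfp42. These were among the larger differences on the list. The region assigned to Klf2 held 2013 and 1502 in C2, 2916 and 1872 in C3, and 3644 and 3118 in OSKM, a difference of -0.95 for C2 and -0.53 for C3. Klf1, the erythroid factor gene, differed by -0.64 and -1.01. The C2 and C3 libraries did not overlap those of OSKM for any of these genes.

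At Nanos3 peaks were called where region reads were at the floor. Its region differed by -2.14 for C2 and -7.21 for C3, with 1 C3 library at the lowest value. Peaks were nevertheless called in all 6 libraries, 36 and 44 high in C2, 19 and 30 in C3, and 106 and 102 in OSKM. The C2 minus C3 difference of 5.00 ± 0.93 (log2, SE) did not pass the test (limma, Benjamini-Hochberg adjusted p = 0.0785). The size of the C3 difference in region reads thus went with a value at the floor of the table.

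The housekeeping and metabolism list moved as one, with OSKM above for 23 of 23 genes and medians of -1.28 and -1.04. Rpl13, a ribosomal protein gene, held 781 and 554 normalized reads in C2, 672 and 541 in C3, and 1659 and 1544 in OSKM. Mt1, a metallothionein gene, held 2504 and 1783, 2807 and 2350, and 4771 and 3903. Slc25a4, the mitochondrial ADP/ATP carrier gene, differed most on the list, at -2.37 and -2.82. The medians of the list were close to those over all 751 genes of the chromosome, -1.14 and -0.99.

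Of 29 genes for the cell cycle, replication and chromatin, 27 were higher in OSKM and none lower, with medians of -1.19 and -1.02. Ctcf, the insulator protein gene, held 240 and 244 in C2, 299 and 215 in C3, and 592 and 564 in OSKM. Junb, an AP-1 subunit gene, shared a region with Prdx2, the peroxiredoxin gene, at 1211 and 903, 1444 and 1235, and 2609 and 2670. Cdt1, a replication licensing factor gene, differed by -1.12 and -0.92. The exceptions were Wrn, a RecQ helicase gene (-0.54 and 0.05), and Cul4a, a cullin ubiquitin ligase gene (-1.62 and 0.77).

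Cul4a stood out in C3, with 1063 and 689 normalized reads against 254 and 104 in C2 and 464 and 546 in OSKM. Both C3 libraries were the highest of the 6, on a chromosome where C3 was mostly low. Its C2 minus C3 difference did not pass the test (limma, Benjamini-Hochberg adjusted p = 0.0573).

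Of 25 Zfp genes (zinc finger proteins) with a region above the minimum, 24 were higher in OSKM, with medians of -1.24 and -0.99. The remaining one, Zfp703, differed by -1.24 and 0.10. All 5 such cadherin genes but Cdh13 were higher in OSKM, as were both such Adam protease genes. Cdh1, the gene of E-cadherin, the adhesion protein of epithelial and pluripotent cells, held 2529 and 1780 in C2, 3152 and 2608 in C3, and 3948 and 3737 in OSKM. Its differences of -0.86 and -0.42 were below the chromosome's median in size.

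The lists of tissue genes were small, and differences between lists were not tested. OSKM was above for 5 of 7 epithelial genes (medians -0.71 and -0.47), 7 of 12 lineage transcription factors (-1.02 and -0.65), 13 of 19 signalling genes (-1.09 and -0.88), 5 of 7 neuronal genes (-1.62 and -0.84) and 4 of 8 basement membrane and matrix genes (-0.35 and -0.76). Among signalling genes Fgfr1, a fibroblast growth factor receptor gene, held 1296 and 752 in C2, 1340 and 1039 in C3, and 2513 and 2347 in OSKM. Jak3, a cytokine receptor kinase gene, differed by -1.60 and -1.73. Neither showed overlap between OSKM and the other cells.

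Several of these genes went against the chromosome. Nrg1, the gene of the growth factor neuregulin, held 176 and 86.0 normalized reads in C2, 332 and 207 in C3, and 2.00 and 41.7 in OSKM, the only listed gene of the chromosome with OSKM below all others among H3K27ac regions with a mean of 50 or more. No OSKM peak was called in its region. Col4a1 and Col4a2, the paired collagen IV genes of basement membranes, shared a region with 404 and 138 in C2, 731 and 371 in C3, and 137 and 226 in OSKM. Palld, a gene of actin bundles, held 561 and 264, 771 and 693, and 239 and 377. Both regions were higher in C3 than in OSKM with no overlap, while the C2 libraries overlapped OSKM.

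Nkx6-3, a homeobox gene, had a strong region in which all cell groups overlapped. It held 2504 and 1417 in C2, 2632 and 2363 in C3, and 2374 and 1881 in OSKM. Zfhx3, a zinc finger homeobox gene, held 444 and 390, 589 and 468, and 602 and 493. Tox3, an HMG-box gene, was highest in C3, with 389 and 306 against 140 and 121 in C2 and 171 and 178 in OSKM. In each of these the OSKM libraries overlapped another cell group or lay below it.

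**Figure D5:**
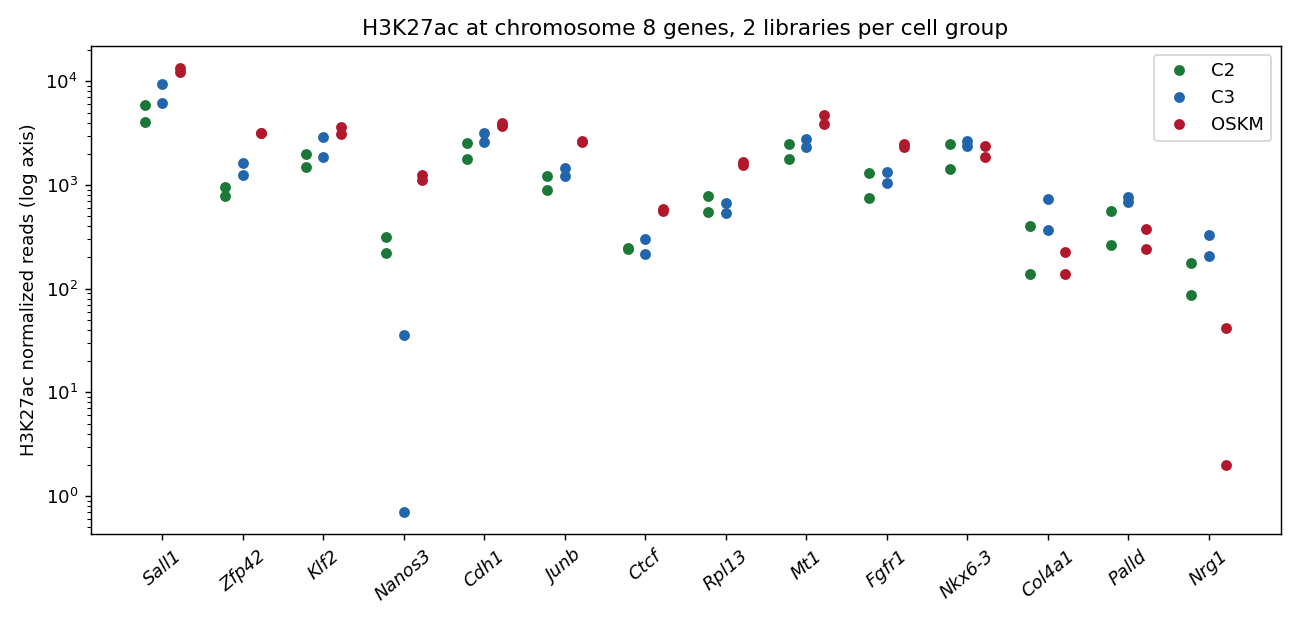
H3K27ac normalized reads (log axis) in the region of 14 chromosome 8 genes, with 1 point per library and 2 libraries per cell group. OSKM is above C2 and C3 at Sall1 (13410 and 12300), Zfp42, Nanos3, Junb, Ctcf, Rpl13 and Fgfr1, overlaps them at Nkx6-3, and is lowest at Nrg1 (2.00 and 41.7).

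By size, the H3K27ac regions farthest above OSKM, among those with no overlap and a mean of 50 or more in the higher group, lay in Erlin2, Cdh13, Csgalnact1, Isx and Slc7a6 for C2 (4.51 to 5.13), and in Erlin2, Col4a2, Cdh13, Slc7a6 and 68308 bp from Isx for C3 (5.48 to 6.37). In Erlin2, which encodes a protein of endoplasmic reticulum lipid rafts, C2 held 123 and 35.3 normalized reads, C3 held 241 and 103, and OSKM 1.0 and 0.9. Each of these regions had a called peak in 3 libraries, namely both C3 and the first C2 library, and none in OSKM. Among these listed regions, only the one in Isx and the one 68308 bp from it shared a nearest gene. A further Cdh13 region, outside these lists, also had peaks in both C3 libraries and the first C2 library alone.

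The regions farthest below OSKM were Gm36843, Gm39281, Tango6, a region 58713 bp from Gm26747 and one 55425 bp from Gm6360 for C2 (-7.15 to -6.21). For C3 they were Pgbd5, Kcnn1, Anapc10, a region 1977 bp from Gm51579 and Nanos3 (-8.22 to -7.21). All of these rested on libraries at or near 1 read, and some held called peaks there. At Pgbd5, a transposase-derived gene, C3 was at 0.7 and 1.1 normalized reads with peaks 25 and 24 high. In C2, regions at 1 read among those holding a called peak of that library made up 2.63% and 3.73% of chromosome 8 H3K27ac regions, in C3 4.20% and 5.86%, and in OSKM 2.34% and 2.15%. The shares were highest in C3, whose largest differences all involve such values.

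The number of regions called between C2 and C3 depended on the fit. Of 4567 chromosome 8 H3K27ac regions fitted, 5 passed an adjusted p under 0.05 (limma with Benjamini-Hochberg adjustment over 101532 regions), 3 higher in C2 (0.0276% of all regions fitted) and 2 lower (0.0305%). An unadjusted p under 0.05 was found for 801. Of 2514 H3K9me3 regions 0 passed, where 0.0465% of 51632 were called higher and 0.0872% lower in C2. There 264 had an unadjusted p under 0.05, and the share of all regions with such a p was not counted in either mark. Both edgeR and DESeq2 called 3 H3K9me3 regions (0.271% and 0.337% of all regions). The H3K27ac count was 29 in edgeR (0.281% of all regions) and 105 in DESeq2 (1.16%). The count was 256 by the FDR of the authors' deposited table (1.79%) and 861 with a replicate block (13.4%). It was 0 with quantile normalization or with only regions that hold a peak. In both marks the count rose when any 1 library was left out.

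The 2 regions lower in C2 lacked C2 peaks. A region 55425 bp from Gm6360 (chr8:78129013-78132200) held 0.9 and 1.5 normalized reads in C2, 199 and 183 in C3, and 162 and 160 in OSKM, a difference of -6.53 ± 0.78 (log2, SE; limma, Benjamini-Hochberg adjusted p = 0.0185). Its peaks were 43 and 36 high in C3 and 33 and 32 in OSKM. The region in Nlrc5 (chr8:94453347-94455656), an activator gene of MHC class I, held 6.2 and 1.5 in C2, 156 and 159 in C3, and 56.3 and 74.1 in OSKM, a difference of -5.29 ± 0.74 (limma, Benjamini-Hochberg adjusted p = 0.0227). In C3 its peaks were 52 and 39 high. Both regions fell in C2 in reads and in peaks.

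The 3 regions higher in C2 had peaks in C3 as well. In Anapc10 (chr8:79714259-79717390), a gene of the anaphase-promoting complex, C2 held 90.5 and 157, C3 0.7 and 1.1, and OSKM 425 and 372 (limma, Benjamini-Hochberg adjusted p = 0.0334). Its peaks were 29 and 23 high in C2, and the first C3 library had one 17 high. In Wwp2 (chr8:107446170-107452058), a ubiquitin ligase gene, C2 held 208 and 427, C3 30.8 and 6.7, and OSKM 1658 and 1564 (adjusted p by limma with Benjamini-Hochberg = 0.0239). Its peaks were 51 and 47 high in C2 and 44 and 35 in C3. The region 430 bp from Cdyl2 (chr8:116733421-116736599), a chromodomain gene, held 202 and 154 in C2, 3.6 and 7.8 in C3, and 482 and 440 in OSKM (adjusted p by limma with Benjamini-Hochberg = 0.0205), with peaks 59 and 35 high in C2 and 46 and 36 in C3. Peaks were thus called in at least 1 C3 library in all 3 regions, although the C3 region reads were low.

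The H3K9me3 regions lay mostly between genes, with 39.1% within 2000 bp of a gene against 74.5% of H3K27ac regions within 2500 bp. The strongest one (chr8:123425717-123434649), 3702 bp from Tubb3, held 7.42% to 12.2% of a library's chromosome 8 H3K9me3 reads. It had 13690 and 21570 normalized reads in C2, 18790 and 24220 in C3, and 34480 and 35710 in OSKM. The next strongest, in Arhgap10, held 1426 and 1100 in C2, 1347 and 1324 in C3, and 2512 and 2402 in OSKM. In region reads OSKM was above all other libraries in both regions. The input was also high at the strongest region. Its tallest peaks were 299 to 386 high over a local background of 73.1 to 111, against a background of 6.51 to 11.3 in Arhgap10.

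Among gene families, the H3K9me3 regions of 7 of 7 Adam protease genes above the minimum were higher in OSKM, as were those of 6 of 6 neuronal genes, 8 of 11 Zfp genes, 3 of 3 cell cycle and chromatin genes, 3 of 3 epithelial genes, 2 of 2 cadherins, 2 of 2 matrix genes, 2 of 4 signalling genes and 1 of 1 lineage factor. No gene of the pluripotency or housekeeping lists reached the minimum. Adam5, a sperm surface protein gene, held 139 and 129 in C2, 144 and 138 in C3, and 252 and 279 in OSKM. In Nek1, a cilium kinase gene, the values were 827 and 767, 820 and 799, and 1687 and 1830, a difference of -1.14 and -1.12. Zfp617, a zinc finger gene, held 130 and 216, 127 and 160, and 485 and 535. At Nek1, C2 and C3 overlapped and OSKM was about as far above as in H3K27ac, where it held 331 and 371 against 129 to 182.

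Exceptions in H3K9me3 were few. Zfp930 (0.08 and -0.52), Zfp869 (0.58 and 0.22) and Zfp791 (-0.47 and -0.14) were the Zfp genes with overlap. Of the defensin genes, antimicrobial peptide genes clustered near the start of the chromosome, 4 of 52 had a region above the minimum and 2 of these were higher in OSKM, and no defensin gene reached it in H3K27ac. Carboxylesterase genes, which encode liver and gut hydrolases, had 2 of 20 above it in each mark, of which 1 was higher in OSKM. Olfactory receptor genes had no region in either mark. Palld, one of the genes whose H3K27ac did not follow the chromosome, did so in H3K9me3, with 216 and 232 in C2, 281 and 262 in C3, and 515 and 468 in OSKM.

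Some H3K9me3 regions were higher in C2 or C3. A region in Sipa1l2, a Rap GTPase-activating protein gene, held 128 and 124 in C2, 40.2 and 32.7 in C3, and 40.2 and 51.4 in OSKM (limma, Benjamini-Hochberg adjusted p = 0.0720 for C2 against C3). A region 590 bp from Cers4, a ceramide synthase gene, held 80.4 and 82.4, 43.9 and 43.6, and 37.8 and 27. C2 stood above the other cells in both, but the C2 against C3 difference did not pass the test in either.

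The HA libraries tested whether tagged factors were called more often on chromosome 8. In C2, 5.80% and 5.43% of autosomal HA peaks lay there (639 of 11017 and 2152 of 39617), against 5.11% and 5.32% in Empty (485 of 9492 and 1065 of 20022). The difference of 0.402 percentage points had an exact two-sided permutation p of 0.333, the smallest possible, and was 0.0923 at a −log10 q of 5 or more (exact permutation p = 1.0). Peaks called in both C2 libraries and in neither Empty library numbered 117 on chromosome 8 and 2496 elsewhere. Of the 117, 36 lay in an H3K9me3 region (30.8%, against 39.1%) and 5 in an H3K27ac region with a peak (4.27%, against 6.57%).

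HA peaks gathered at the 5S ribosomal RNA genes, which RNA polymerase III transcribes. RefSeq places 42 of these genes in 83.3 kb (chr8:123538784-123622046), with a median step of 1701 bp. The first C2 library had 55 peaks there (8.61% of its chromosome 8 peaks), the second 32 (1.49%), and the Empty libraries 2 (0.412%) and 11 (1.03%). Without these peaks the shares on chromosome 8 were 5.33% and 5.36% in C2 and 5.09% and 5.27% in Empty, a difference of 0.163 percentage points (exact permutation p = 0.333).

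Within the cluster the peaks lay at different places. In the first C2 library 0 of 55 peaks overlapped a 5S gene, and the median summit was 525 bp from the nearest one. In the second, 24 of 32 overlapped one, and the median was 39 bp. In the Empty libraries the medians were 440 and 78 bp, over 2 and 11 peaks. Copies of a repeat are nearly identical, so how tags were placed among them is uncertain. Peaks were also counted in 100 kb windows on a fixed grid, and the window from 123500001 to 123600000 holds only part of the 5S cluster. In it lay 43 and 22 HA peaks in C2 and 2 and 7 in Empty. The densest such window of the other autosomes, on chromosome 6, held 48 and 31 in C2 and 11 and 21 in Empty. The whole 5S cluster held 55 and 32 in C2, above those windows, and 2 and 11 in Empty, below them. Gathering of HA peaks was thus not confined to chromosome 8. In C2, which site held more depended on where the window was cut. Histone regions in the cluster, 1 of H3K27ac and 2 of H3K9me3, were at 1 read in all 6 libraries.

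Part of the H3K27ac regions had no peak. Of the 6750, 2249 (33.3%) held no peak of any library, 2115 of these were exactly 1001 bp wide, and 1623 were at 1 read in all 6 libraries. The last of them ended at 131251773, past the last annotated gene (129286569), and 100 started past the last peak (129301361). They were left out of the counts of single regions with a minimum mean, of those split by promoter and of those by called peak. They were not all left out of the C2 against C3 fit, in which 4567 regions were fitted while 4501 held a peak. The H3K27ac region counted in the 5S cluster also held no peak.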

How the data were processed

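Chromatin immunoprecipitation with sequencing was analysed from 22 samples: 12 histone libraries, 4 HA libraries and 6 inputs, the inputs not analysed on their own. The submitters' processing notes name DiffBind 1.16.2, SAMtools 1.3, Bowtie2 2.2.5, CASAVA 1.8.2 and the mm10 build, without roles. Per the file headers, MACS 2.1.0.20150731 (histone marks) and 2.1.1.20160309 (HA) called peaks in each library against 1 input at a q-value of 0.01. Tags kept, per the file headers, were 28947967 to 46304808 in histone and 1629753 to 3896935 in HA libraries. The deposited peak lists give each peak's height as signal (the pileup of fragments at its summit), its −log10 p and q, and its fold enrichment, a ratio to local background, all as the authors' values. The deposited region tables give signal as normalized reads per library, the authors' log2 fold and p-value and FDR. How input reads were used in them is not given in the sources used here.

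Dividing by the lowest value of a library gave whole numbers for 100% of values (tolerance 1e-06), and these are called reads. Size factors were medians of ratios over 31539 (H3K27ac) and 19638 (H3K9me3) regions of the other autosomes with a peak in all 6 libraries. Local background was (pileup + 1) / fold enrichment - 1. A chromosome's level was the log2 ratio of its region reads to those of the other 18 autosomes (all but chromosome 8). C2 was set against C3 in R 4.3.3 with limma 3.58.1 (trend, log2 of the authors' normalized reads + 1, lowest 25% of regions left out, Benjamini-Hochberg adjusted p under 0.05). Alternatives used edgeR 4.0.16 and DESeq2 1.42.0 on the reads recovered in this way. Other steps used Python 3.11.15, NumPy 2.4.6, pandas 2.3.3 and matplotlib 3.10.9. The fit was tested on simulated data. The closing section gives the alternatives tried (filters, pseudocounts, scaling, a replicate block, other tools, other sums over regions and leaving out each library). Single values were compared by exact two-sided permutation tests. Precision is limited by 2 libraries per group.

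Genes took the strongest region within 2500 bp (H3K27ac) or 2000 bp (H3K9me3) of their RefSeq extent (GRCm38.p6). Genes were named from lists (pluripotency and germ cell; epithelial; lineage transcription factors; cell cycle, replication and chromatin; signalling; basement membrane and matrix; housekeeping and metabolism; neuronal; defensins; carboxylesterases; Zfp genes; olfactory receptors; Adam proteases; cadherins), as up to 4 members of known role per list. Regions were named as the 5 with the largest difference in each direction (no overlap, higher group at 50 or more), the 5 strongest per mark, and the called ones. The chromosome, these lists and rules were chosen with earlier results of these data known. Members named beyond 4 on a list, the exceptions of a list (Cul4a, Wrn, the Zfp genes and Palld among them), the 4 genes whose promoters are printed, Nek1 and the 5S genes were singled out after their values were seen.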

Additional observations from a re-analysis of the deposited data

How the results depend on the processing

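Of 105 alternative settings over 11 results, 68 were labelled unchanged, 36 moved and 1 reversed. For the C2 against C3 levels and the HA difference, any value of the same sign was labelled unchanged, whatever its size. The HA difference of 0.0923 at a −log10 q of 5 or more, beside 0.402, was labelled so. So was the H3K9me3 level of C2 against C3 at matched peak heights, -0.01 beside -0.17. Levels against OSKM were labelled unchanged within the pooled SD of the libraries. The C2 against C3 calls depended most on the fit. The 5 H3K27ac regions called on chromosome 8 became 229 with no regions left out, 22 with a pseudocount of 8, 0 with quantile normalization, 861 with a replicate block, 29 in edgeR, 105 in DESeq2 and 256 in the authors' deposited FDR. With regions lacking a peak left out in place of the lowest 25%, chosen after seeing the data, 0 were called. Leaving out 1 library gave 42 to 721, the highest without the first C2 library and 214 without the second C3 library, and the same 5 regions were among the calls in every setting with calls. For H3K9me3 the count of 0 became 17 with no regions left out (the same 17 with every region that holds a peak, which is all of them), 3 with a pseudocount of 8, 3 with libraries centred on the other autosomes, 22 with a replicate block, 3 in edgeR, 3 in DESeq2 and 37 in the authors' deposited FDR, and 1 to 44 without 1 library (41 without the first C3 library, 44 without the first C2 library). The replicate numbers are not stated to mark a shared batch. Same-numbered deviations correlated at 0.346 (H3K27ac) and 0.107 (H3K9me3) over 2 pairs, so the block stayed an alternative.

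The levels kept their direction against OSKM in every setting. The median over regions gave -1.99 (C2) and -1.77 (C3) in H3K27ac and -0.96 and -0.92 in H3K9me3. Matched peak heights, chosen after seeing the data, gave -0.51, -0.45, -0.25 and -0.22 in the same order. For H3K9me3, leaving out the strongest 1% of regions gave -0.85 and -0.77, and regions with a peak in all 4 libraries gave -0.68 and -0.67. Leaving out 1 library gave -1.19 to -0.92 (C2) and -1.03 to -0.87 (C3) in H3K27ac, and -0.79 to -0.69 and -0.61 to -0.54 in H3K9me3. The H3K27ac level of C2 against C3 reversed to 0.031 without the second C2 library (range -0.24 to 0.031), and the H3K9me3 one ranged from -0.22 to -0.12. The HA difference ranged from 0.218 to 0.586 percentage points without 1 library. The cause was not tested where a value moved. Where a group was left with 1 library, that library was assumed to vary like the others. The HA libraries kept 1629753 to 3896935 tags, which limits how many peaks could be called.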

Other observations

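Apart from the 5S ribosomal RNA genes, HA peaks of chromosome 8 were spread unevenly over its 10 Mb bins in all 4 HA libraries. The third bin (20 to 30 Mb) held 103 (16.1%) and 256 (11.9%) of the chromosome's peaks in C2 and 84 (17.3%) and 119 (11.2%) in Empty, the most of any bin in the first library of each group. In the second libraries the sixth bin held the most, 274 (12.7%) in C2 and 133 (12.5%) in Empty. The shares of C2 and Empty overlapped in the third bin. The last bin held 86 (13.5%) and 113 (5.25%) in C2 and 25 (5.15%) and 55 (5.16%) in Empty, and 55 of the 86 in the first C2 library lay at the 5S genes.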
